A study of Mus musculus with 10 samples.

Results

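Zfp36l2 lies in the distal part of mouse chromosome 17, and the genes around it were followed in fetal livers that lack it. The list held 59 genes on either side of Zfp36l2, from Myom1, Lpin2 and Emilin2 at one end to Ston1 at the other. Of these, 52 had at least 1 probe set annotated with that gene symbol alone, out of 18193 such genes on the array, with 109 probe sets in all. The extent of the list was set with results of the same wild type against knockout comparison in view. It was drawn out to Emilin2, which had been called lower along with Yipf4 and Cdc42ep3. Myom1 and Lpin2 lie just beyond Emilin2. All values of that comparison below are therefore descriptions, given without a p-value for any single member, and they support nothing about the region. The members were thus selected on their place and on the limma calls of those 3 genes.

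The wild type group was 5 individual fetal livers at embryonic day 14.5, and the other group was 5 livers of the same age labelled Zfp36l2 knockout. Both groups have a mixed b6, 129 strain background, with 1 liver and 1 array for each replicate. The labels do not name the targeted part of the gene, the embryonic stem cells used or the litters, and the strain origin of chromosome 17 in each liver was not typed. The comparison asks how transcript levels differ in fetal liver without this protein.

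The members share a chromosomal position, not a pathway. Genes that lie close together on a chromosome are usually inherited together, so a bred line carries a block of neighbouring DNA along with a targeted gene. Neighbours can also share regulatory DNA, as when a pair of genes is transcribed in opposite directions from a single stretch. Zfp36l2 itself is a relative of tristetraprolin that binds AU-rich elements in mRNAs and speeds their decay. The midgestation liver makes blood, and it holds red cell precursors, hepatoblasts and smaller numbers of megakaryocytes and myeloid cells.

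The deposited intensities were taken to be linear, as their scale is not stated in the sources used here, and every fold and log2 change rests on that. Array medians lay between 19.5 and 25.01, and after quantile normalization the mean correlation of 1 array with the others was 0.954 to 0.960. A probe set was tested where its normalized intensity averaged at least 32 over the 10 livers, and intensities under 16 were set to 16 before log2 was taken. That left 41 members with 69 probe sets, and 9906 genes and 18799 probe sets in all. Hepatocyte markers summed to 61793 to 75546 and erythroid markers to 19829 to 26250 intensity units in a liver, and the genotypes overlapped in both.

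Zfp36l2 was lower in every knockout liver. Its tested probe set read 396, 397, 596, 391 and 389 in wild type replicates 1 to 5 and 108, 82.3, 109, 103 and 108 in knockout replicates 1 to 5. Its log2 value fell by 2.08 with an SE of 0.13, and the adjusted p of limma was 8.20e-06. Wild type replicate 3 stood above the other wild type livers. The other probe sets of Zfp36l2 averaged 31.4 and -26.1 in wild type livers and were too dim to test.

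Of the 41 tested members 3 were called lower in knockout livers (limma, Benjamini-Hochberg adjusted p under 0.05), all of them before Zfp36l2 in chromosome order. Over all genes 0.172% of those tested were called lower and 0.323% were called in either direction, and 0.234% of tested probe sets were called, 3 of them from members. As the list was drawn around the called genes, nothing is read from its share of 7.32%. No member was called higher. At an unadjusted limma p under 0.05 there were 10 members, 6 lower and 4 higher, where 13.1% of all tested genes (1301 of 9906) passed that level, and nothing is read from this count either. The members were spread around 0, with 20 negative and 21 positive changes. Their median log2 change was 0.01 and their median absolute change 0.13, against 0.00011 and 0.13 over all tested genes. Changes under 0.2 in size were found for 28 members, and the 38 that were not called ran from -0.44 to 0.44.

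**Figure D1:**
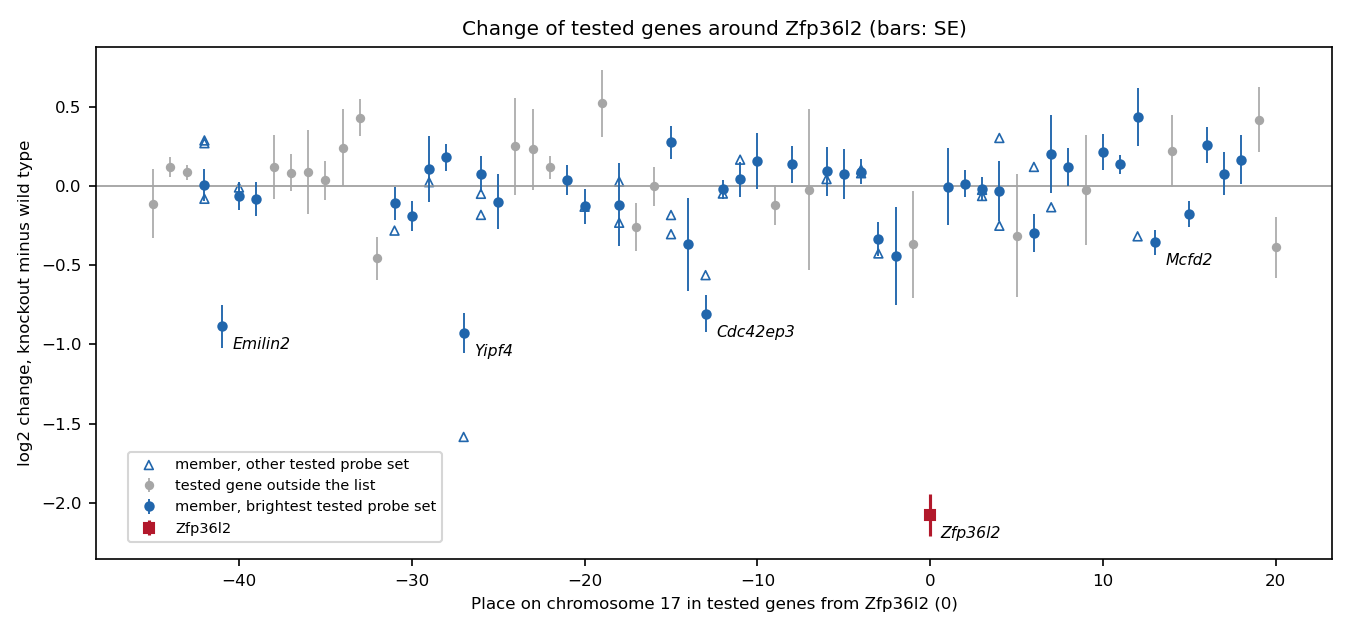
The plot gives the log2 change (knockout minus wild type) of each tested gene around Zfp36l2 against its place in chromosome order, counted in tested genes from Zfp36l2 at 0, with SE bars from limma. Emilin2, Yipf4 and Cdc42ep3 sit between -0.93 and -0.81 at places -41, -27 and -13, while the tested members closest to Zfp36l2 lie nearer 0.

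Emilin2 encodes an elastin microfibril interface protein, a secreted glycoprotein of the extracellular matrix. Its single probe set read 282, 257, 381, 261 and 299 in wild type replicates 1 to 5. In knockout replicates 1 to 5 it read 179, 159.8, 153, 186 and 122. The groups did not overlap, and wild type replicate 3 was the highest liver. The means were 296 ± 50.4 and 160.01 ± 25.3 (SD, n = 5), a log2 change of -0.89 ± 0.14 (SE), or 1.85-fold lower in knockout livers. Emilin2 was no longer called without wild type replicate 1 (-0.90), wild type replicate 3 (-0.79) or knockout replicate 2 (-0.89).

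Yipf4 encodes a membrane protein of the Golgi apparatus that spans the membrane several times. Its brighter probe set read 506, 405, 546, 332 and 408 in the wild type livers and 260.2, 224, 204, 224 and 229 in the knockout livers, in replicate order. Every knockout liver was below every wild type liver, and the knockout values lay closer together. The means were 439 ± 85.6 and 228 ± 20.4 (SD, n = 5), with a log2 change of -0.93 ± 0.12 (SE), a 1.90-fold fall. A second tested probe set of Yipf4 read 146, 89.0, 109, 79.8 and 115 in wild type livers. In knockout livers it read 6.002, 61.7, 48.4, 49.8 and 22.4, again without overlap, but 1 liver lay under the floor and the probe set was not called (-1.58 ± 0.34). The remaining probe set averaged 21.8 and 6.84 and was too dim to test. Yipf4 was called in each fit that left out 1 liver.

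Cdc42ep3 encodes an effector of the small GTPase Cdc42, which shapes the actin and septin cytoskeleton. Its brighter probe set read 439, 379, 460.3, 349 and 345 in the wild type livers and 222, 220.5, 262, 179.6 and 245 in the knockout livers. There was no overlap. The means were 394 ± 52.5 and 226 ± 31.1 (SD, n = 5), a log2 change of -0.81 ± 0.12 (SE), or 1.75-fold lower in knockout livers. The other probe set read 227, 211, 259, 222 and 201 against 135, 142, 178, 162 and 144, also without overlap. Its change of -0.56 ± 0.11 did not pass the threshold over all probe sets. Leaving out wild type replicate 3 (-0.75) or knockout replicate 2 (-0.80) ended the call of the brighter probe set. Wild type replicate 3 gave the highest value for Emilin2, for the brighter probe set of Yipf4, for both probe sets of Cdc42ep3 and for Zfp36l2. With no filter on dim probe sets, or with eBayes run without an intensity trend, none of the 3 genes was called, although their changes were the same.

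**Figure D2:**
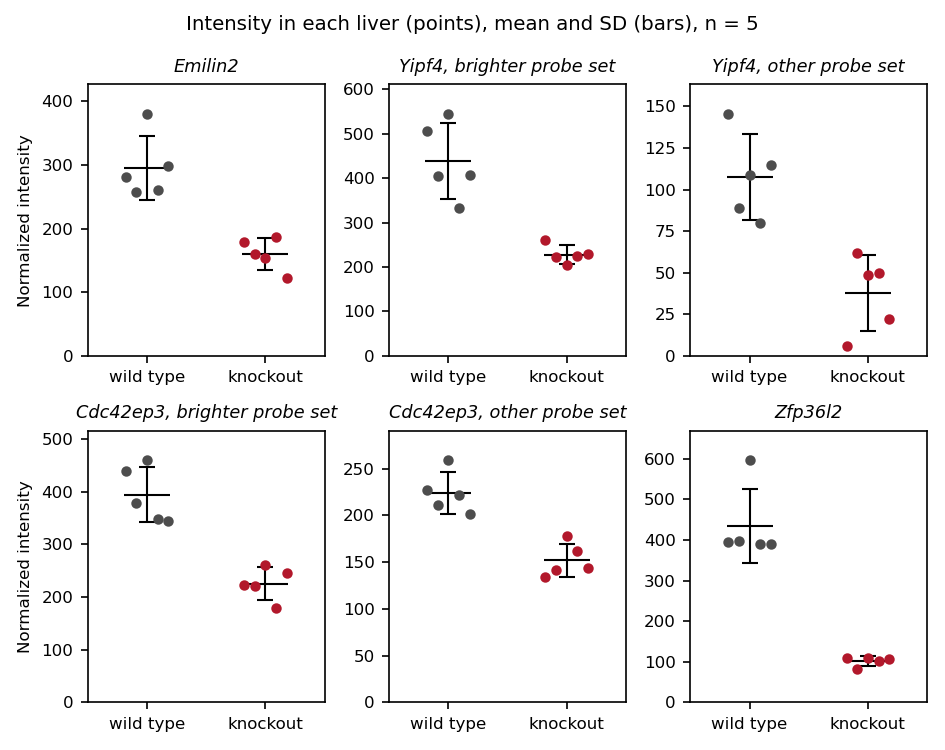
Each panel plots normalized intensity in the 5 wild type and 5 knockout livers for a probe set of Emilin2, Yipf4, Cdc42ep3 or Zfp36l2, with the mean and SD as bars. In all 6 panels the knockout livers lie below the wild type livers.

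Of the marker lists for blood cells, the megakaryocyte and platelet list alone held genes called by limma. These lists were chosen with earlier results of these data known, so their counts are descriptions. Over all tested genes limma called 0.172% lower and 0.323% in either direction, and 13.1% had an unadjusted p under 0.05. The megakaryocyte and platelet list had 14 of 17 genes tested, of which 13 were negative and 8 were called lower, with a median log2 change of -1.11. Its summed intensity was 7901, 4744, 8268, 7503 and 6367 in wild type livers and 3276, 3011, 4188, 4273 and 4151 in knockout livers, without overlap. Wild type replicate 3 had the highest wild type sum, and knockout replicate 4 had the highest knockout sum. Among knockout livers, replicate 4 was highest for Emilin2 (186) but lowest for the brighter Cdc42ep3 probe set (179.6). Wild type replicate 2 had the lowest wild type sum and the lowest wild type Emilin2 value (257). For the brighter probe sets of Yipf4 (405 against 332 in replicate 4) and Cdc42ep3 (379 against 345 in replicate 5) it was not the lowest. Whether the 3 called neighbours moved with the number of these cells was not tested, and in whole livers fewer cells of a type and less RNA per cell cannot be told apart. Macrophage markers summed to 2700 to 4553 in wild type and 4201 to 5245 in knockout livers, with 0 of 10 genes negative, 0 called by limma, 4 at an unadjusted p under 0.05 and a median of 0.39. Neutrophil markers summed to 6348 to 28016 and 14162 to 26777, with 2 of 10 genes negative, 0 called by limma, 6 at an unadjusted p under 0.05 and a median of 0.84. Erythroid markers had 7 of 8 tested genes negative, 0 called by limma, 6 at an unadjusted p under 0.05 and a median of -0.21. The sums of these 3 lists overlapped between the genotypes.

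The sequences upstream of the 3 called genes are shown because each of these genes was called lower in knockout livers. They are the 250 bases before each RefSeq start (GRCm38.p6), 5′ to 3′ on the strand of the gene, with capitals where CCAAT or GGGCGG or the reverse complement of either was found. RefSeq gave 2 starts for Emilin2. Emilin2 is on the minus strand at chr17:71311557-71311806 and chr17:71311012-71311261, Yipf4 on the plus strand at chr17:74489243-74489492, and Cdc42ep3 on the minus strand at chr17:79355092-79355341.
Emilin2 start 1: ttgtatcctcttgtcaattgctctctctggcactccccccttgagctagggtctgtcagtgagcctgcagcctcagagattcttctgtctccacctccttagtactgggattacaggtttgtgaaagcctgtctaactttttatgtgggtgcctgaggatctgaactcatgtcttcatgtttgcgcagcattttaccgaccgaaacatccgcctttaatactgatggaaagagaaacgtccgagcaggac
Emilin2 start 2: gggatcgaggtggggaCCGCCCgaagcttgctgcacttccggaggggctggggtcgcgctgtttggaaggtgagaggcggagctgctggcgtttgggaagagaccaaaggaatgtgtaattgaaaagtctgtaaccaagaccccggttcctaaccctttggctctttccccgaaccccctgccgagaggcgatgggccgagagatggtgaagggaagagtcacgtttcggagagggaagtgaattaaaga
Yipf4: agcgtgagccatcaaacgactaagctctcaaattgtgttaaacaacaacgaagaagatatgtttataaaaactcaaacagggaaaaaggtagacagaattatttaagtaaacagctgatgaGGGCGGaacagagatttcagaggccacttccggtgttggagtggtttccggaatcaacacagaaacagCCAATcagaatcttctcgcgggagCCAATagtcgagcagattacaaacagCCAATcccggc
Cdc42ep3: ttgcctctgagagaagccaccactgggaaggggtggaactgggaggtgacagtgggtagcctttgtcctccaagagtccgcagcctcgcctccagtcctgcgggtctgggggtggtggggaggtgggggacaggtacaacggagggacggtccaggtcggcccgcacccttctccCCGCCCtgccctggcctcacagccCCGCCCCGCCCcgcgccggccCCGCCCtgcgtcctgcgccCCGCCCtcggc
The windows differ in composition. Cdc42ep3 had 72.4% G and C, with 5 matches to GGGCGG, a pair of which share a base, and no CCAAT. Yipf4 had 43.6% G and C, with 3 matches to CCAAT, 1 to GGGCGG and 2 to TATAAA. These 2 TATAAA matches overlap in a single stretch, 1 on each strand. Emilin2 had 1 GGGCGG match upstream of the second start and none upstream of the first. The letters AGATAA, which match a motif of blood cell transcription factors, were in none of the 4 windows. Over all 32851 RefSeq windows of 250 bases, 33.8% held CCAAT, 32.7% GGGCGG, 12.4% TATAAA and 9.99% AGATAA on either strand, while 2.79% held CCAAT and 8.47% GGGCGG at least 3 times. Among 59 windows of 46 members, 30.5% held CCAAT, 55.9% GGGCGG, 8.47% TATAAA and 8.47% AGATAA. Some members had more than 1 window, and the difference of these shares from those over all windows was not tested.

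The tested members nearest to Zfp36l2 on either side were not called. Before Zfp36l2, Haao, an enzyme that makes quinolinic acid, read 70.7, 111, 60.7, 78.4 and 148 in wild type livers and 68.1, 39.8, 53.4, 63.3 and 131 in knockout livers. Its groups overlapped widely, and the change of -0.44 ± 0.31 was not called. Mta3, a subunit of the NuRD chromatin remodelling complex, averaged 249.98 ± 33.9 and 198 ± 18.7 (log2 -0.33 ± 0.11, not called), and its other tested probe set changed by -0.43 ± 0.18. Knockout replicate 2, at 226, was above wild type replicate 5, at 219.8. Cox7a2l, a factor in assembly of respiratory supercomplexes, averaged 1032 ± 82.0 and 1100.1 ± 101 (0.09 ± 0.08), and its 3 probe sets gave changes of 0.08 to 0.10.

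After Zfp36l2, Dync2li1, a light intermediate chain of the dynein that moves cargo in cilia, averaged 65.6 ± 16.98 and 65.6 ± 16.6. Lrpprc, which stabilises mitochondrial mRNAs, averaged 563 ± 65.4 and 566 ± 36.2, a log2 change of 0.01 ± 0.08. Ppm1b, a protein phosphatase, averaged 873 ± 69.4 and 863 ± 65.3, and its 3 tested probe sets changed by -0.06 to -0.02. The signs of these 3 genes depended on the scaling or on the livers included. Thada and Plekhh2, also on this side, had no probe set bright enough to test.

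Farther along after Zfp36l2, a run of neighbours from Rhoq to Mcfd2 held several probe sets without overlap between the genotypes. The run was singled out after its values were seen. Over all tested genes 3.36% did not overlap between the genotypes, 1.77% with the knockout livers lower and 1.59% with them higher. The probe set of Rhoq and the dim one of Cript were not tested, and no such share was taken over untested probe sets. Among tested members 6 did not overlap, 4 lower and 2 higher, and they included the 3 called genes. Mcfd2 encodes the partner of the cargo receptor that carries coagulation factors V and VIII from the endoplasmic reticulum. It read 777, 807, 719, 759.9 and 961 in wild type livers and 586, 644, 623, 589 and 691 in knockout livers. Each knockout liver was lower, with means of 805 ± 93.0 and 627 ± 43.3 (SD, n = 5), but the change of -0.36 ± 0.08 (SE) was not called.

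Pigf and Cript are adjacent and point away from each other. Pigf takes part in adding the phosphoethanolamine of glycosylphosphatidylinositol anchors. It read 155, 144, 160.4, 153 and 140.1 in wild type livers and 161, 160.7, 223, 175 and 161 in knockout livers. The groups were separated by under 1 intensity unit, and knockout replicate 3 stood far above the rest (log2 0.22 ± 0.11, not called). Cript encodes a small protein known for binding a synaptic scaffold protein. Its brighter probe set read 599, 569, 611, 586 and 607 in wild type livers and 638, 615, 650.4, 662 and 700.2 in knockout livers. These groups did not overlap either (0.14 ± 0.06, not called). Its dim probe set had the opposite order, at 41.1, 68.9, 25.2, 31.7 and 38.8 against 11.3, 16.8, 18.2, 12.8 and 25.2, and was below the level for testing. The gap there was thin, between 25.24 in wild type replicate 3 and 25.20 in knockout replicate 5.

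The stretch between the starts of Pigf and Cript is shown because both genes had higher values in every knockout liver by their tested probe sets. It spans 159 bases at chr17:87025402-87025560 (RefSeq, GRCm38.p6), given on the plus strand of Cript, and lies upstream of both starts. Capitals mark CCAAT or GGGCGG on either strand.
Pigf-Cript: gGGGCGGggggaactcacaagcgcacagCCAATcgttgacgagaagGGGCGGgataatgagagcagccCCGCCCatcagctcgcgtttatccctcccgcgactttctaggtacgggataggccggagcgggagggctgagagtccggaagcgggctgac
It held 1 match to CCAAT and 3 to GGGCGG, with 64.8% G and C and no TATAAA or AGATAA.

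Rhoq, a small GTPase, lies just before Pigf among the members and had 1 dim probe set. It read 60.9, 56.5, 56.2, 64.1 and 67.9 in wild type livers and -9.69, 30.3, 26.1, -15.3 and -53.8 in knockout livers. All wild type livers were above all knockout livers, of which 3 were under the floor, so no fold is given. Its mean over the 10 livers was too low for the test used here. Socs5, a suppressor of cytokine signalling, read 51.1, 55.1, 75.8, 57.02 and 46.7 in wild type and 91.8, 79.99, 72.1, 61.4 and 79.2 in knockout livers. The groups overlapped through wild type replicate 3 (0.44 ± 0.18, not called). Its other tested probe set was dim, at means of 37.5 and 29.2, and reached the filter through its wild type livers (-0.32 ± 0.31).

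**Figure D3:**
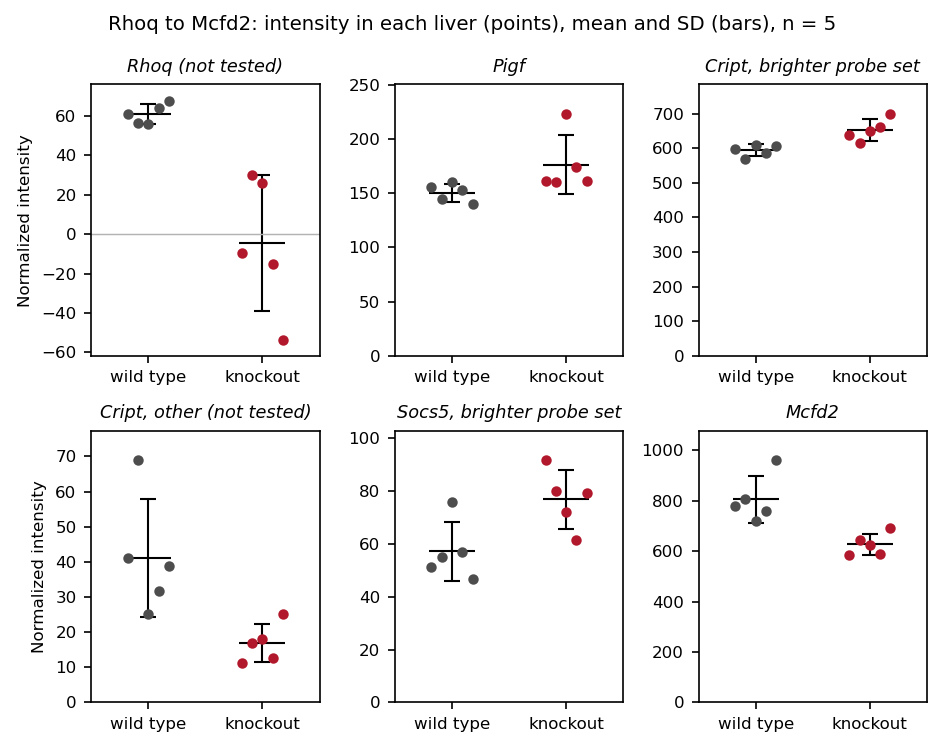
Each panel plots normalized intensity in the 5 wild type and 5 knockout livers for probe sets of Rhoq, Pigf, Cript, Socs5 and Mcfd2, with the mean and SD as bars; probe sets marked as not tested averaged under 32. Mcfd2 and Rhoq were lower in every knockout liver, while Pigf and the brighter Cript probe set were higher.

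Among members by role, the RNA processing and translation group had 4 of 7 members tested, none called by limma, with changes from -0.12 to 0.16. Hnrnpll, a splicing regulator, averaged 912 ± 60.4 and 897 ± 35.8. Eif2ak2, the double-stranded RNA-activated kinase that halts translation, averaged 94.7 ± 21.8 and 91.4 ± 35.4, and its 3 probe sets ran from -0.23 to 0.03. Dhx57, a putative RNA helicase, changed by 0.16 ± 0.18.

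In the chromatin, transcription and DNA repair group all 6 members were tested and none was called by limma, with 4 negative and 2 positive changes. Dpy30, a shared subunit of histone H3K4 methyltransferase complexes, averaged 838 ± 116 and 731 ± 48.8 (-0.19 ± 0.09). Msh6, a mismatch repair protein, averaged 355 ± 30.6 and 314 ± 20.1 (-0.18 ± 0.08). Epas1, a hypoxia-inducible transcription factor, averaged 311 ± 49.4 and 336 ± 38.4 (0.12 ± 0.12), and Smchd1, which helps silence the inactive X chromosome, averaged 401 ± 28.3 and 384 ± 38.6 (-0.07 ± 0.09).

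Membrane traffic genes had 6 of 9 members tested, of which Yipf4 was the single one called. Fez2, Spast and Ppp1r21 changed by 0.04 ± 0.09, 0.11 ± 0.21 and 0.17 ± 0.15. The cytoskeletal group had 6 of 7 tested, with Cdc42ep3 called. Ndc80, a kinetochore protein, averaged 246 ± 28.5 and 233 ± 25.6 (-0.08 ± 0.11), and Strn, a scaffold of phosphatase complexes, gave -0.13 with both tested probe sets. Eml4, a microtubule-binding protein, changed by 0.08 ± 0.16.

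Signalling and ubiquitin genes had 8 of 10 members tested and none called by limma, with 6 positive and 2 negative changes and a median of 0.17. Those signs are of the brightest probe set. Of the positive members, Birc6, Prkd3, Prkce and Socs5 also had tested probe sets with negative changes, and Sos1 and Fbxo11 had no other tested probe set. Memo1 and Ppm1b were negative in every tested probe set. Fbxo11, a substrate receptor of a ubiquitin ligase, averaged 118 ± 7.62 and 142 ± 15.2 (0.26 ± 0.11). Sos1, an exchange factor for Ras, averaged 199.8 ± 26.1 and 219.6 ± 28.9 (0.14 ± 0.12). Birc6, a large inhibitor of apoptosis, averaged 246 ± 17.2 and 262 ± 44.8, and Memo1, a protein known for a part in cell migration, 768 ± 89.4 and 714 ± 103. Prkce, a protein kinase C isoform, was dim and changed by 0.20 ± 0.25.

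The metabolism and transport group had 7 of 12 members tested, none called by limma, with a median of 0.01. Slc30a6, a zinc transporter of the Golgi, averaged 329 ± 36.3 and 371 ± 17.6 (0.18 ± 0.09). Lpin2, a phosphatidate phosphatase next to Emilin2, averaged 644 ± 101 and 644 ± 64.0, at a log2 change of 0.0066 ± 0.10. Galm, the enzyme that interconverts galactose anomers, averaged 220.1 ± 26.4 and 226 ± 22.5. Qpct, a glutaminyl cyclase, ran from 92.2 to 169.8 in wild type and from 46.8 to 182 in knockout livers. In the matrix group 2 of 4 were tested, Emilin2 and the secreted kinase Pkdcc, which changed by 0.09 ± 0.15. The remaining tested members were Srbd1 (-0.30 ± 0.12) and Ttc27 (-0.10 ± 0.17), neither of them called.

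**Figure D4:**
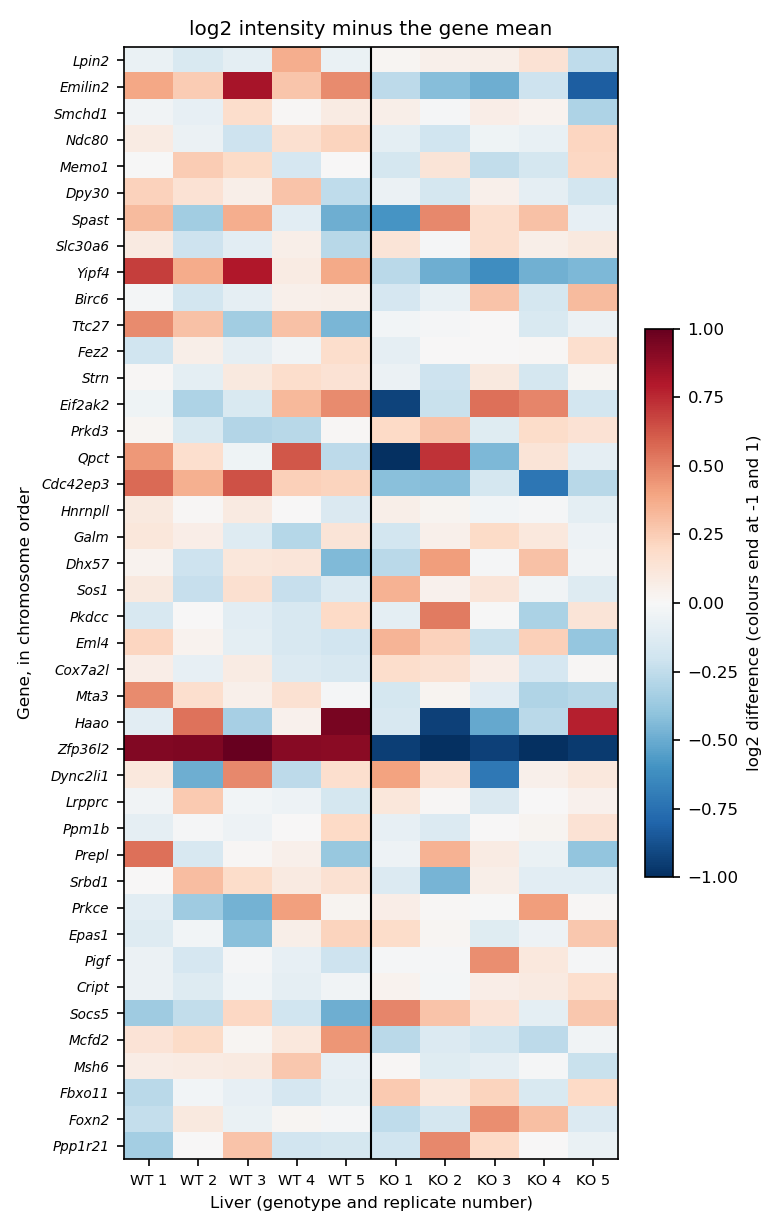
The heat map shows the log2 intensity of each tested member and Zfp36l2, minus its mean over the 10 livers, in chromosome order (rows) for each liver (columns). Emilin2, Yipf4 and Cdc42ep3 are above their means in all 5 wild type livers and below them in all 5 knockout livers, while their direct neighbours show no such split.

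Probe sets of the same gene differed in sign for some members. Of 20 members with at least 2 tested probe sets, 12 had 1 sign and 8 had both. Changes were over 0.5 apart for 4 members, Yipf4, Prkd3, Prepl and Socs5, and went past their SEs in both directions for 2, Prkd3 and Socs5. Prkd3, a protein kinase D, had probe sets at 0.27 ± 0.10 and -0.30 ± 0.14. The first averaged 214 ± 22.4 and 259 ± 26.4, and the second 192 ± 23.1 and 157 ± 28.2, in wild type and knockout livers. Prepl, an oligopeptidase-like hydrolase, had probe sets at 0.30 ± 0.18, -0.03 ± 0.19 and -0.25 ± 0.33. Srbd1 gave -0.30 ± 0.12 and 0.12 ± 0.16. Lpin2 gave 0.29 ± 0.12 and 0.27 ± 0.11 with probe sets other than its brightest one. None of these was called. Which exons each probe set covers was not analysed here.

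**Figure D5:**
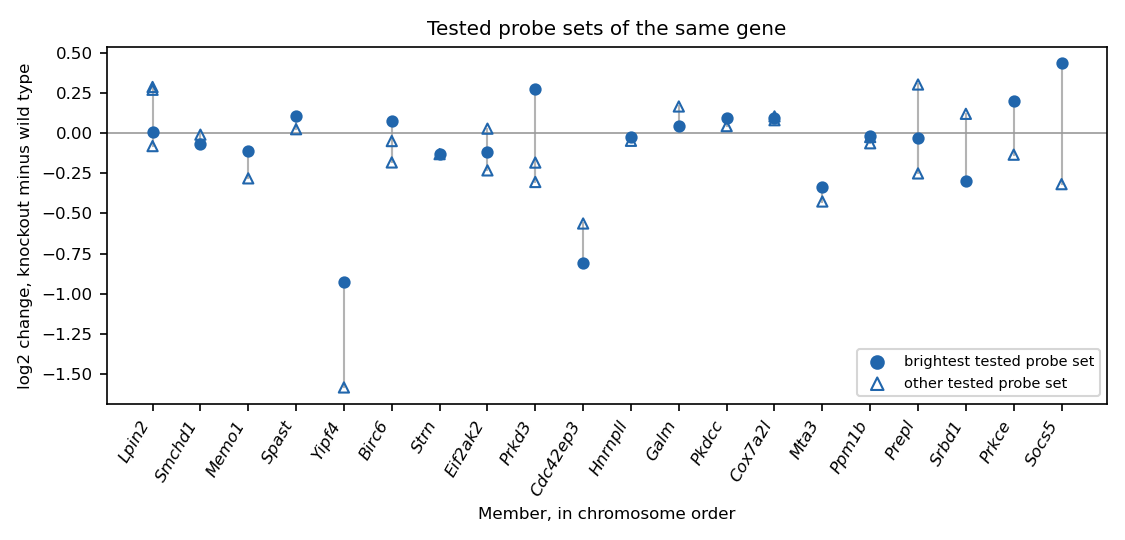
The plot gives the log2 change (knockout minus wild type) of every tested probe set of the 20 members that had at least 2, in chromosome order. Both probe sets of Yipf4 and of Cdc42ep3 lie below -0.5, whereas those of Prkd3, Prepl and Socs5 fall on both sides of 0, the lower one of Socs5 being the dim probe set with a knockout mean of 29.2.

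The stretch also held 19 tested genes that are not on the list. None was called by limma, and their changes ran from -0.46 to 0.52; 3 had an unadjusted p under 0.05, a share near the 13.1% of all tested genes. On the rest of chromosome 17 none of 415 tested genes was called by limma and the median change was -0.02; 49 had an unadjusted p under 0.05, again near the share over all genes. At the edges, Lpin2 was the only tested gene between Emilin2 and the first tested gene outside, Myl12a (0.09 ± 0.05). The untested member Myom1 also lies beyond Emilin2. At the other end the last tested member, Ppp1r21 (0.17 ± 0.15), was followed by Mettl4 (0.42 ± 0.20). Members before Zfp36l2 had a median change of -0.04 (14 negative, 12 positive), and those after it 0.08 (6 negative, 9 positive).

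For 18 members there was no test. Myom1, Crim1, Vit, Cyp1b1, Slc8a1, Thada, Plekhh2, Abcg5, Abcg8, Rhoq and Ston1 had probe sets that all averaged under 32. They include the sterol transporter subunits Abcg5 and Abcg8, at 13.9 and 18.6 in wild type and 0.430 and 25.5 in knockout livers. Srsf7, Cebpz, Atl2, Map4k3, Calm2 and Camkmt had no row under those symbols in the annotation used here, and Gemin6 was listed beside another symbol. No tested member passed the filter through 1 genotype alone by its brightest probe set, as none had a group mean under 32. Among their other tested probe sets 2 had such a mean, a dim one of Prkd3 and that of Socs5.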

How the data were processed

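Total RNA from each of 10 livers was column-purified and labelled as biotin cRNA with a one-cycle Affymetrix kit, per the labels' protocols. The deposited table holds the authors' intensity per probe set, taken here to be linear and background-subtracted from its values (21.5% at or below 0); their software and scaling: not given in the sources used here. Its 45037 probe sets carried 1 symbol (34945), several (932) or none (9160) in the platform annotation. Here the intensities were quantile normalized, set to at least 16, logged and compared with limma 3.58.1 in R 4.3.3 (an intensity-trend eBayes fit of genotype alone, two-sided; p-values were adjusted by Benjamini-Hochberg across the 18799 probe sets tested, and calls were made under 0.05). Each gene stands for its brightest tested probe set. SDs are over 5 livers on the normalized scale; SEs are limma's; the number of arrays limits the precision. Gene order came from RefSeq (GRCm38.p6). A much lower floor, which widens changes of dim genes, was kept as an alternative.

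The members, role groups and marker lists were chosen with earlier results of these data known. Members were described in full where called, without overlap, among the 3 nearest to Zfp36l2 on a side, among the 5 brightest, or with differing probe sets (one called and one not, or over 0.5 apart). The method was tested on simulated data. Alternatives covered normalization, floor, filter, prior, array weights, replicate block and each liver left out; 1, combining the low floor with a percentile filter, was added after the data were seen. Figures used matplotlib 3.10.9 in Python 3.11.15.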

Additional observations from a re-analysis of the deposited data

Results flagged for a closer look

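Among 140 groups of 5 livers, 9 values were set apart by Dixon's ratio from the remaining livers of that genotype, where chance gives about 1 in 20 groups, or 7. The tested Zfp36l2 probe set was high in wild type replicate 3, at 596 intensity units against 397 for the nearest liver, and low in knockout replicate 2, at 82.3 against 103. Pigf was high in knockout replicate 3, at 223 against 175. Lpin2 was high in wild type replicate 4, at 824 against 612, and Smchd1 was low in knockout replicate 5, at 316 against 389. Prkce was high in knockout replicate 4, at 51.9 against 40.7. Among probe sets other than a gene's brightest one, knockout replicate 1 was low for Eif2ak2 (40.9 against 53.4) and Prkd3 (14.3 against 31.1), and knockout replicate 3 was low for Ppm1b (229.9 against 264).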

How the results depend on the processing

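The count of called members stayed at 3 or 4 under 12 of the 14 alternatives that kept all livers, and was 0 with no filter and 0 with eBayes without a trend, where 1 and 4 genes were called in all. It ranged from 1 to 3 over the fits that left out a liver. Under the added low floor with percentile filter it was 3. Wild type replicate 3 or knockout replicate 2, when left out, brought it to 1. The cause was not tested. The other floors, filters and priors and the replicate block left the log2 changes of Emilin2, Yipf4 and Cdc42ep3 the same. Those settings could move only the SE and adjusted p of these genes, around whose calls the list was drawn. Zfp36l2 was called in all 24 alternatives, at -2.11 to -1.92. With median scaling the changes of Dync2li1 (0.058), Ppm1b (0.068), Hnrnpll (0.056) and Prepl (0.035) turned positive, the member median moved to 0.08, and with array weights Lrpprc was at -0.025 and Ppm1b at 0.0033. With a liver left out, Dync2li1 ran from -0.13 to 0.17, Lrpprc from -0.027 to 0.080, Ppm1b from -0.055 to 0.030 and Prepl from -0.13 to 0.10. With the replicate number as a block, 4 members were called, Mcfd2 being added, and 81 of 9906 genes against 32; deviations of same-numbered livers correlated at 0.049 to 0.194, and 3 of 5 correlated best with their own number, so the numbers were not taken to pair livers. With the 40th percentile filter the fourth member was Rhoq, whose knockout mean was -4.46, and it was not called with the low floor added or with no filter. All genes called numbered 53 with median scaling, 84 with array weights and 102 without wild type replicate 5, but 21 with the low floor, 9 with that floor and the percentile filter, and 6 to 20 with any other liver left out.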
